A study of Mus musculus with 4 samples.

Results

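The genes of the BCL2 family that keep cells alive, and those that open the mitochondrial membrane, were followed in maps of H3K9ac, the acetylation of a lysine near the end of histone H3 that marks active promoters. The pro-survival genes were Mcl1, Bcl2l1, Bcl2, Bcl2l2, Bcl2a1a, Bcl2a1b and Bcl2a1d, and the pore-forming effectors Bax, Bak1 and Bok. The 10 genes, out of 21887 protein-coding genes, were chosen by name, and their peaks by position: each peak overlapping a gene's RefSeq span on mm10, extended by 10 kb on either side, was taken. This gave 23 of the 16419 peaks called under CM and 91 of the 103336 peaks called with romidepsin. The 10 windows did not overlap and held 511.8 kb in all.

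The cells were mouse myeloid-derived suppressor cells (MDSC) grown from bone marrow and made senescent in culture. MDSC are immature myeloid cells that restrain T cells. Both groups were kept under a condition the labels call CM, which they do not spell out, and 1 of them was also treated with romidepsin, a cyclic depsipeptide that inhibits class I histone deacetylases. For strain, age, dose and duration nothing is given in the sources used here. Each condition had 1 immunoprecipitated library, so no value has a replicate error, no test between conditions was run, and the values stand side by side.

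Cells die by the mitochondrial route when BAX or BAK assembles into pores in the outer mitochondrial membrane and cytochrome c escapes. MCL1, BCL2, BCL-XL (the product of Bcl2l1), BCL-W (Bcl2l2) and A1 (the Bcl2a1 copies) hold BAX, BAK and their BH3-only activators in check. Myeloid cells are known to depend on MCL1 and A1 for survival, and drugs against BCL2 and BCL-XL are used to kill senescent cells. Histone deacetylases remove acetyl groups from H3K9.

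The read depth of both libraries is unknown, and deeper sequencing yields more and wider peaks. The fold enrichment and the q-value of each peak were those of the authors' peak caller, averaged over the broad region. Their values were ranked only within a list. Where the same cutoff was applied to both lists, the unknown depth limits the comparison of the resulting counts. Median peak length and fold were 1121 bp and 5.04 in the CM list, and 957 bp and 2.64 in the romidepsin list. A peak within 1 kb of the start site was found at 51.4% of all genes with an annotated start site in CM and 63.1% with romidepsin. Of 10 listed myeloid markers 6 had an annotated start site, and all 6 had such a peak in both lists. Neutrophil markers had one at 3 of 5 in CM and 4 of 5 with romidepsin. Among markers of T, B and NK cells the counts were 0 and 3 of 7, and in red cell and platelet precursors 2 and 3 of 4. Of the stromal and endothelial markers 1 had a start site in the table, with no peak in either list, and 1 and 5 of 5 had a peak in the 10 kb window. In such a bulk map a mark carried by few cells and a weak mark in many cells cannot be told apart.

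The start sites of these genes differ widely in CpG content, and 6 of them are shown because the peaks described next sit on them. The sequences come from RefSeq (GRCm38.p6) and run from 250 bases before the start site to 50 after it. In the first 3 the capitals mark CpG dinucleotides. They are Mcl1 (chr3:95658471-95658770, plus strand), whose peaks were the widest of the family, Bcl2 (chr1:106714241-106714540, minus strand), with the densest CpGs, and Bok (chr1:93685325-93685624, plus strand), which lacked a CM peak.
Mcl1: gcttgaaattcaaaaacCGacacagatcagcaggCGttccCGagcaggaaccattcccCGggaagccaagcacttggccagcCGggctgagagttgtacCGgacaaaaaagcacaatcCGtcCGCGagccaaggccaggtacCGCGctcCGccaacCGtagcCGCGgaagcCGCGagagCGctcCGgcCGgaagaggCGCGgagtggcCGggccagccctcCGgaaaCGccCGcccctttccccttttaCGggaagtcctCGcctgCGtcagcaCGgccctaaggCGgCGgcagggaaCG
Bcl2: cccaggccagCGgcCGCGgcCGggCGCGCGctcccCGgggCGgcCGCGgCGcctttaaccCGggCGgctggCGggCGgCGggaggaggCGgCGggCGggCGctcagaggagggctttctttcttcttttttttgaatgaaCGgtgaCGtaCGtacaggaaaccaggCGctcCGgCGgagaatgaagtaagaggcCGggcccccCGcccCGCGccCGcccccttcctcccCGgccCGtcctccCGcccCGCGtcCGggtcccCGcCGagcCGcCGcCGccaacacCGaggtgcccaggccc
Bok: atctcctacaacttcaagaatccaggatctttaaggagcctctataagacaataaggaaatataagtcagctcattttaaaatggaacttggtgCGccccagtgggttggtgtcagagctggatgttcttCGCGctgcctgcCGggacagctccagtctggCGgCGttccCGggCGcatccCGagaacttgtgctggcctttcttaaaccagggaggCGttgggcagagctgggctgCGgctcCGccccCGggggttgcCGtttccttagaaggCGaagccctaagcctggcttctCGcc

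The A1 copies Bcl2a1a, Bcl2a1b and Bcl2a1d lie on chromosome 9 and are shown because they are near-identical. Capitals mark GAGGAA on either strand, the core bound by the myeloid factor PU.1 and its relatives. They also mark TGANTCA, a loose form of the AP-1 site in which N is any base. The stretches are Bcl2a1a (chr9:88956670-88956969, plus strand), Bcl2a1b (chr9:89199023-89199322, plus strand) and Bcl2a1d (chr9:88731801-88732100, minus strand).
Bcl2a1a: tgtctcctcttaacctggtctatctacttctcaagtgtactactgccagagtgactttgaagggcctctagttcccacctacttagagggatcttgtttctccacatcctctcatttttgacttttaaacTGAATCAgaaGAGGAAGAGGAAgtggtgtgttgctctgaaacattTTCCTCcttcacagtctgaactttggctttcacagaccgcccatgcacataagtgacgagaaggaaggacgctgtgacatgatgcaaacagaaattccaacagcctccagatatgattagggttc
Bcl2a1b: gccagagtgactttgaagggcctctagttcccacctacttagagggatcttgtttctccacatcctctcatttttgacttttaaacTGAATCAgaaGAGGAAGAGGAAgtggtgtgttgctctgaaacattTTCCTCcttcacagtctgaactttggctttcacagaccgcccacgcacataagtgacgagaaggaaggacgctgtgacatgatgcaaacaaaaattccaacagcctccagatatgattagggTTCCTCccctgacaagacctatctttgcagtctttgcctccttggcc
Bcl2a1d: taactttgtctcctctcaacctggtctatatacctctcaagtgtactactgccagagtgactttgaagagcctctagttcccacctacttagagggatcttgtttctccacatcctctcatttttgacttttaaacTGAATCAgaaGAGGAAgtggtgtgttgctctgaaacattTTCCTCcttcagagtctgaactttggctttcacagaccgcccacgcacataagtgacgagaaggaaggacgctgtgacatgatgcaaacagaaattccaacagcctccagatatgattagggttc

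Aligned without counting overhangs, Bcl2a1a and Bcl2a1b were 99.2% identical over 256 bases, Bcl2a1a and Bcl2a1d 98.0% over 294, and Bcl2a1b and Bcl2a1d 98.8% over 250. Bcl2a1d lacked 6 bases of a GAGGAA repeat that the other copies had. Per the labels, reads were 75 bases long. Of the 226 stretches of that length in each sequence, 47.3% in Bcl2a1a, 46.0% in Bcl2a1b and 21.2% in Bcl2a1d were also found, letter for letter, at the start site of another A1 copy. For Bcl2a1a and Bcl2a1d the matching start sites included that of Bcl2a1c, a further copy that is not among the 10 genes, is named here after its values were seen and had no peak in its window in either list. No such stretch of the other 7 genes was found at another start site. The handling of reads that match several places is not given in the sources used here. Differences in peaks between the A1 copies are therefore uncertain.

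Most of the family was already marked at the start site under CM, and all of it with romidepsin. A CM peak lay within 1 kb of an annotated start site at 8 of the 10 genes, against 51.4% of the 17492 genes with an annotated start site. With romidepsin the count was 10 of 10, against 63.1%. Bcl2a1a, an A1 copy, and Bok, the least understood of the effectors, had a start site peak in the romidepsin list only, which was so at 11.8% of all such genes. Over the whole windows the counts were also 8 (58.8% of all genes) and 10 (72.2%), and the same genes, Bcl2a1a and Bok, had a window peak with romidepsin only (13.4%). Each of the 23 CM peaks was enclosed from end to end by a romidepsin peak, as were 97.9% of all CM peaks.

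The order of the start site peaks by strength placed the same genes low in both lists. At a −log10 q of at least 5, 5 of 10 genes had a start site peak in each list, against 31.5% of all genes in CM and 47.0% with romidepsin. They were Mcl1, Bcl2l1, Bcl2, Bax and Bak1 in both. Bcl2l2, the 3 A1 copies and Bok lacked one in both. When the romidepsin list was reduced to its 16419 strongest peaks, the number in the CM list, 8 genes had a start site peak in each list (51.4% and 51.2% of all genes). Bok then had none, Bcl2a1a had one with romidepsin only, and its near-identical copy Bcl2a1b had one in CM only. The romidepsin peak of Bcl2a1b, with a −log10 q of 4.25, fell just below the lowest value kept, 4.34. The CM list was kept whole, so the CM peak of Bcl2a1b counted at 1.91.

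**Figure D1:**
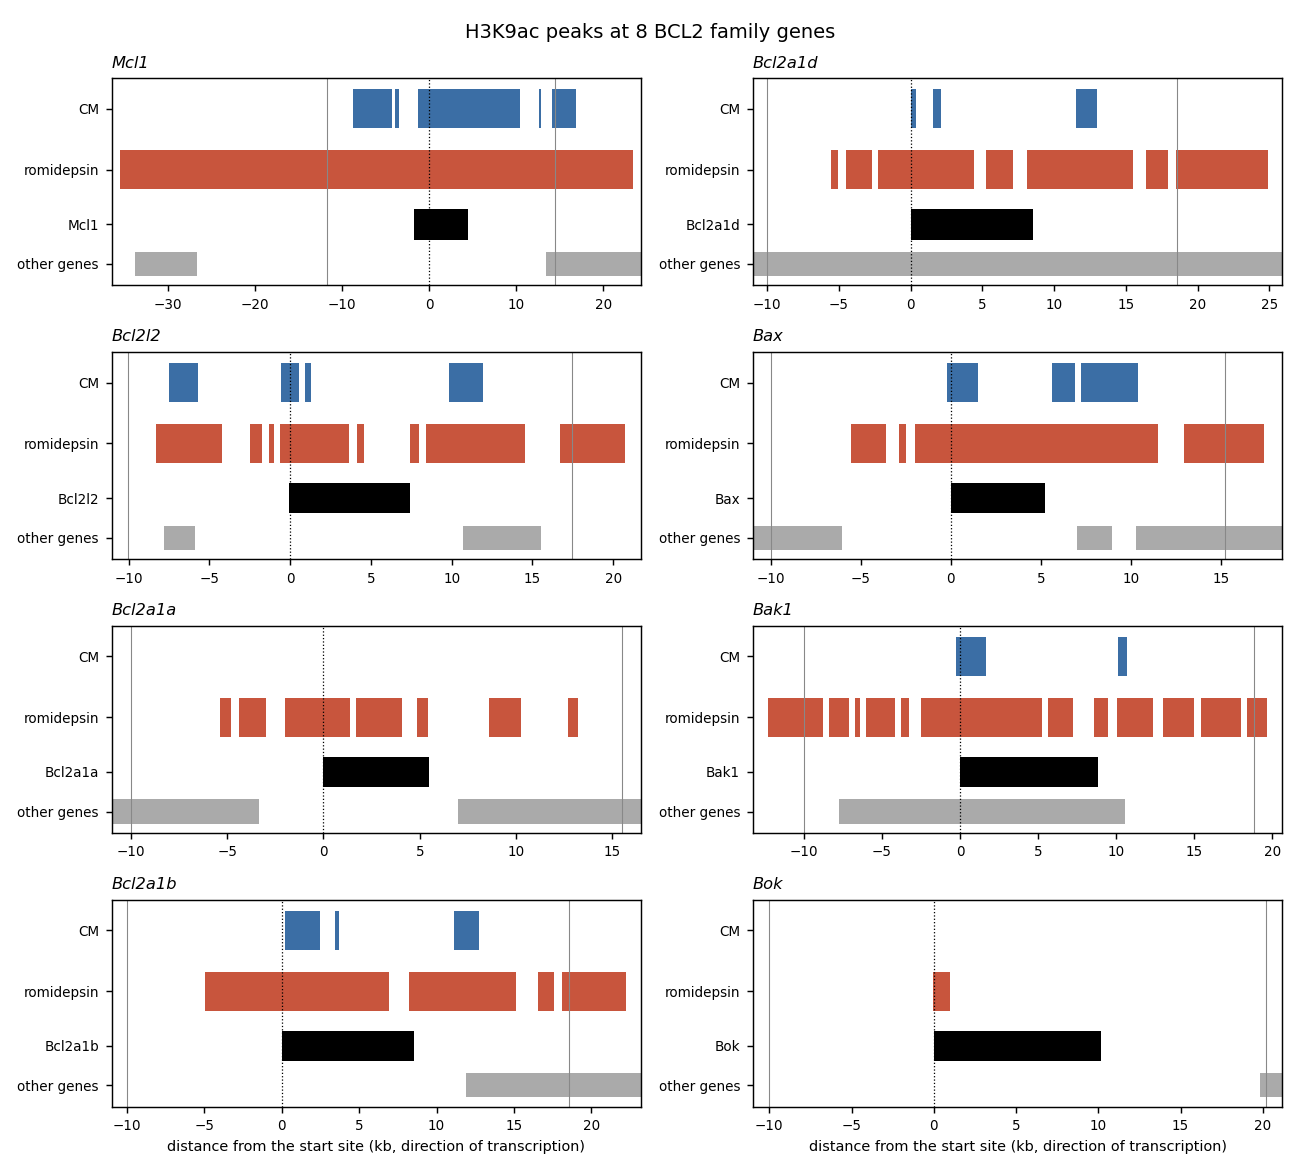
Peaks at the 8 shorter genes, with distance from the start site in kb along the direction of transcription on the horizontal axis (the scale differs between panels), CM peaks in blue, romidepsin peaks in red, the gene in black and other annotated genes in grey. Dotted lines mark the start site and thin lines the ends of the window. Mcl1 lay under 1 romidepsin peak of 58.8 kb, and Bok had 1 romidepsin peak of 1.08 kb and none in CM.

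Mcl1, which encodes a short-lived protein that restrains BAK, had the widest peak of the CM list. That peak (chr3:95657383-95669099, 11717 bp, fold 7.35, −log10 q 8.59) began 1338 bp before the start site, ran 10378 bp past it and ended beyond the gene. Its fold was above that of 96.0% of the genes with a CM start site peak. With romidepsin a peak of 58808 bp (chr3:95623257-95682064, fold 4.20, −log10 q 7.33) reached 35464 bp upstream and 23343 bp downstream. It lay over 9 CM peaks and over Ensa, Gm52627 and part of Adamtsl4.

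The Mcl1 window was 65.8% covered under CM and 100% with romidepsin. No other gene had a CM share this high, against a median of 1.46% over all genes. With romidepsin 27 genes had a wholly covered window, and the median was 12.0%. The rank rests on the size of the window: within the gene alone Mcl1 was 93.0% covered in CM and 201 genes were covered more, and with flanks of 25 kb it was 36.9% and 3 genes.

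Bcl2l1, which encodes BCL-XL, has 3 annotated start sites within a few kilobases, all on the minus strand. Under CM a peak of 2363 bp (chr2:152829356-152831718, fold 5.65, −log10 q 5.30) covered the middle start site and stopped 10 bp short of the most upstream one. A second CM peak of 595 bp (fold 3.90, −log10 q 1.97) covered the most downstream one. With romidepsin a peak of 9443 bp (chr2:152824856-152834298, fold 3.93, −log10 q 6.17) lay over all 3 start sites and both CM peaks.

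Most of the length under romidepsin peaks at Bcl2l1 lay away from the start sites. The gene spans 75.1 kb. Away from its start sites 13 romidepsin peaks lay over it, 12 of them wholly inside and 1 with 165 bp inside, and they covered 56.3 kb of the gene. Those at chr2:152756026-152758896 and chr2:152762773-152764843 also lay over Cox4i2, which overlaps the far end of Bcl2l1. They cannot be assigned to either gene. None of the 13 overlapped a CM peak, which was so for 87.1% of all romidepsin peaks. This was fixed by their choice, because the CM peaks of the window lay under the start site peak. The folds of the 13 ran from 2.51 to 3.60. The longest were 17297 bp (chr2:152778653-152795949, fold 3.47) and 12735 bp (chr2:152802513-152815247, fold 3.60). Both were among the 16419 strongest romidepsin peaks. The covered share of the window was 3.11% in CM and 74.3% with romidepsin, or 2.96 and 70.6 kb. The 3 genes nearest to Bcl2l1 in covered length over both libraries were Ppm1h (2.89 and 72.9 kb), Pacsin2 (2.81 and 70.7 kb) and Nav1 (3.08 and 68.2 kb). They were matched on length only. Their windows held 288.4, 109.0 and 273.8 kb, against 95.07 kb at Bcl2l1, so their covered shares were lower.

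Bcl2, the founding member of the family, was marked at its start site alone under CM. That peak (chr1:106713485-106714850, 1366 bp, fold 6.58, −log10 q 6.90) ran from 560 bp before to 805 bp after the start site and was the only CM peak in a window of 196.1 kb. With romidepsin the start site peak was 6148 bp long (chr1:106710020-106716167, fold 4.03, −log10 q 6.75). A further 28 romidepsin peaks lay inside the gene.

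The 28 peaks within Bcl2 had a median length of 1599 bp and folds from 2.24 to 3.40, all below that of the start site peak. Against the whole romidepsin list, 19 of them were longer than its median of 957 bp and 14 had a fold above its median of 2.64. None of them overlapped a CM peak, which was so for 87.1% of all romidepsin peaks. This was fixed by their choice, because the only CM peak of the window lay under the start site peak. Of the 28, 15 lay nearer to the far end of the gene than to the start site. The longest stretch of the gene without a romidepsin peak was 28.1 kb (chr1:106583871-106612001). Covered shares of the window were 0.697% in CM, below the median of all genes, and 29.5% with romidepsin. Among the 16419 strongest of all 103336 romidepsin peaks 2 of the 28 were left (chr1:106539909-106542990, fold 3.40, and chr1:106612002-106614063, fold 3.36).

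**Figure D2:**
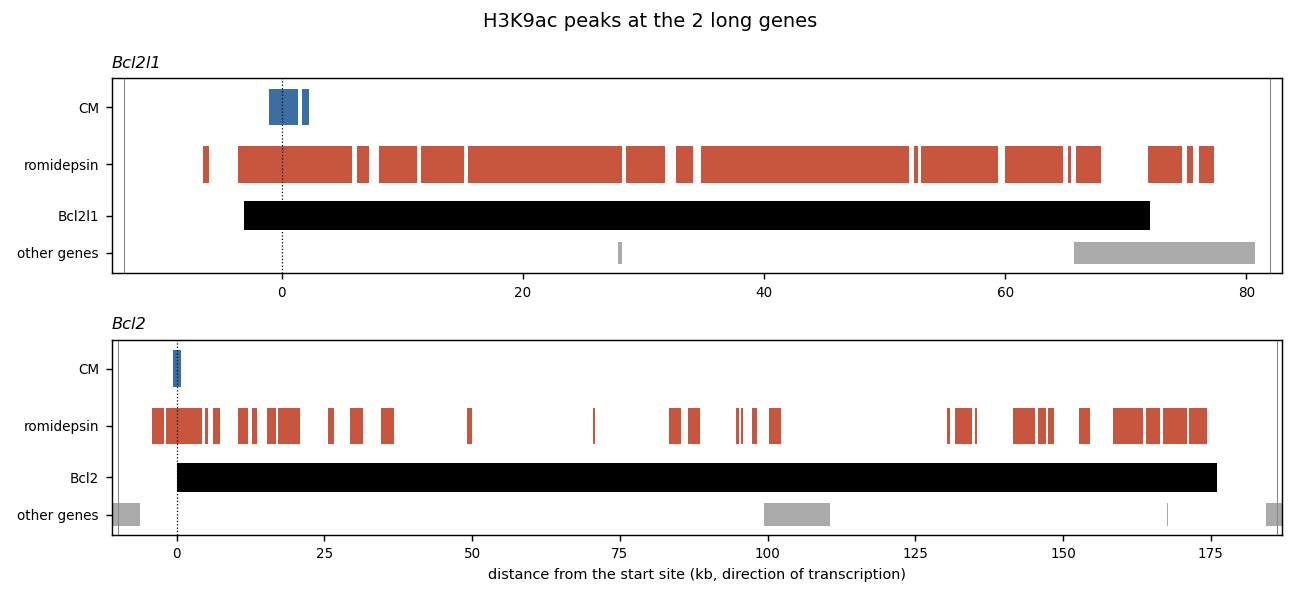
Peaks at Bcl2l1 and Bcl2, drawn as for the shorter genes, with distance from a start site in kb on the horizontal axis, CM peaks in blue, romidepsin peaks in red, the gene in black and other annotated genes in grey. CM peaks were found at the start sites only, whereas 13 romidepsin peaks at Bcl2l1 and 28 at Bcl2 lay over the gene elsewhere.

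Bcl2l2, which encodes BCL-W, was weakly marked between strongly marked neighbours. Its CM start site peak was 1120 bp long (chr14:54882843-54883962, fold 4.38, −log10 q 2.97), with a second of 385 bp just downstream (fold 3.52). The fold of the first was above that of 10.5% of the genes with a CM start site peak. CM peaks in its flanks had folds of 5.99 over Ppp1r3e and 6.53 over Pabpn1, a gene for a poly(A)-binding protein.

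With romidepsin Bcl2l2 was again weaker than both neighbours, whose own order was reversed. The start site peak of Bcl2l2 (chr14:54882781-54887087, 4307 bp, fold 3.35, −log10 q 4.34) lay below the flanking peaks over Ppp1r3e (fold 4.88) and Pabpn1 (fold 4.19). It was only just among the 16419 strongest, whose lowest −log10 q was also 4.34 after rounding. The window was 19.7% covered in CM and 62.4% with romidepsin.

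The A1 copies, whose product is known as a rapidly induced survival factor of myeloid cells, had weak CM peaks or none. Bcl2a1a had no CM peak in its window. At Bcl2a1b a CM peak of 2266 bp (chr9:89199453-89201718, fold 3.80, −log10 q 1.91) began 180 bp after the start site. At Bcl2a1d a CM peak of 354 bp (chr9:88731479-88731832, fold 3.94, −log10 q 2.08) began 18 bp after it, and Gm10634 spans the same place.

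Within the CM list these folds were low, above those of 2.79% of genes at Bcl2a1b and 4.28% at Bcl2a1d. The strongest CM peaks of both windows lay in the flanks, over Mthfs next to Bcl2a1b (1628 bp, fold 6.18) and over Mthfsl and Gm10634 next to Bcl2a1d (1464 bp, fold 5.98). With −log10 q of at least 2, the CM start site peak of Bcl2a1b was lost.

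With romidepsin all 3 copies had a peak across the start site. It was 3340 bp long at Bcl2a1a (chr9:88954933-88958272, fold 3.49, −log10 q 4.83). It was 11877 bp at Bcl2a1b (chr9:89194335-89206211, fold 3.30, −log10 q 4.25) and 6725 bp at Bcl2a1d (chr9:88727415-88734139, fold 3.46, −log10 q 4.69). The covered share of the window was 0% in CM and 41.0% with romidepsin at Bcl2a1a, 14.7% and 71.1% at Bcl2a1b, and 8.22% and 69.9% at Bcl2a1d.

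Of the effectors, Bax had the start site peak with the highest fold of the family with romidepsin. BAX moves from the cytosol to mitochondria when activated. Its CM peak (chr7:45465379-45467142, 1764 bp, fold 5.72, −log10 q 5.49) ran from 244 bp before to 1519 bp after the start site. With romidepsin a peak of 13517 bp (chr7:45455386-45468902, fold 4.37, −log10 q 7.76) covered the whole gene and 3 CM peaks. It also lay over Ftl1, the ferritin light chain gene, with its start site, and over the end of Gys1. Its length and fold therefore cannot be assigned to Bax alone. The CM peaks beyond Bax in that direction, 1275 bp between Bax and Ftl1 (fold 6.36) and 3162 bp over Ftl1 and Gys1 (fold 6.85), were stronger than that of Bax. The window was 24.6% covered in CM and 71.8% with romidepsin.

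Bak1 encodes BAK, which resides in the mitochondrial membrane and is held by MCL1 and BCL-XL. Its CM peak (chr17:27026975-27028876, 1902 bp, fold 6.57, −log10 q 6.99) ran from 249 bp before to 1652 bp after the start site. The romidepsin peak there was 7757 bp long (chr17:27023374-27031130, fold 3.82, −log10 q 5.99). Ggnbp1 spans Bak1 as a whole, so the peaks cannot be assigned to either gene. The window was 8.60% covered in CM, by 2 peaks, and 79.2% with romidepsin, by 12 peaks.

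Bok stood at the other end. Its only peak in a window of 30.2 kb was a romidepsin peak of 1082 bp (chr1:93685500-93686581, fold 3.06, −log10 q 3.44), from 75 bp before to 1006 bp after the start site. The remaining 9.19 kb of the gene had none. Its covered share with romidepsin, 3.58%, was the only one of the 10 below the median of all genes (12.0%).

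**Figure D3:**
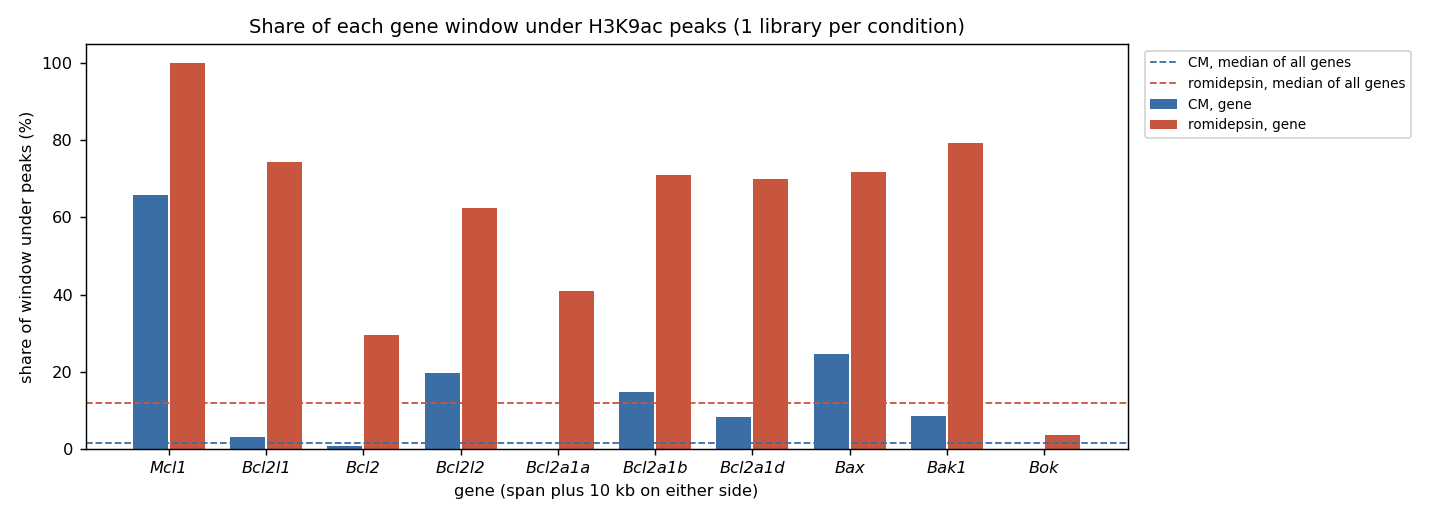
Share of each gene window (span plus 10 kb on either side) under peaks, in percent, with CM in blue and romidepsin in red, and the medians over all 21887 genes as dashed lines. Bars stand for 1 library each and have no error. In CM, 7 of the 10 genes lay above the median, and with romidepsin 9 of the 10.

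Over the family, peaks covered 42.22 kb of the windows in CM (8.25%) and 264.6 kb with romidepsin (51.7%). The median gene was 8.41% covered in CM and 70.5% with romidepsin, against 1.46% and 12.0% over all genes. For pro-survival genes the medians were 8.22% and 69.9%, and for the 3 effectors 8.60% and 71.8%. Without the 3 A1 copies they were 8.60% and 71.8% as well. Of the 23 CM peaks 10 lay at start sites, 2 elsewhere over the gene and 11 in the flanks, where 6 overlapped another protein-coding gene. Of the 91 romidepsin peaks 10 lay at start sites, 49 elsewhere over the gene and 32 in the flanks. Most of the 49 belonged to the longest genes of the family, 28 to Bcl2 and 13 to Bcl2l1. The same split was not made for all genes.

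Romidepsin peaks over a CM peak were longer in the median than the others, though the lengths overlapped. Those over a CM peak numbered 14 (15.4%, against 12.9% in the whole list), with a median length of 6799 bp (2300 to 58808 bp) and a median fold of 3.88. The other 77 had a median length of 1551 bp (293 to 17297 bp) and a median fold of 2.68, and the whole romidepsin list had medians of 957 bp and 2.64. Among the 16419 strongest of all 103336 romidepsin peaks were 12 of the 14 and 9 of the 77. By construction, a longer peak has more room to overlap a CM peak. Length, fold and strength were not split by overlap for the whole list, so the contrast cannot be called particular to the family.

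At the 8 genes with a start site peak in both lists, the romidepsin peak was 3.85 to 19.0 times as long as the CM peak, with a median ratio of 4.76. The median over the 8984 genes with both was 3.35 (interquartile range 2.47 to 4.87), and all 8 lay above it. The lowest was Bcl2l2 and the highest Bcl2a1d, whose CM peak of 354 bp was the shortest. Because every CM peak of the family lay inside a romidepsin peak, no ratio could be below 1. When peaks less than 1 kb apart were merged, the romidepsin start site peak was 71.53 kb at Bcl2l1, 64.15 kb at Mcl1, 39.77 kb at Bak1 and 30.46 kb at Bcl2a1d. It was 17.07 kb at Bax, 11.49 kb at Bcl2, 10.78 kb at Bcl2a1a and 7.057 kb at Bcl2l2, and unchanged at Bcl2a1b and Bok. The CM peak was then 3.54 kb at Bcl2a1b, 3.272 kb at Bcl2l1 and 1.853 kb at Bcl2l2, and unchanged at the other genes with one. The unmerged romidepsin start site peak was longer than 10 kb at Mcl1, Bcl2a1b and Bax, 3 of the 10 genes, against 10.6% of all genes with a start site.

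**Figure D4:**
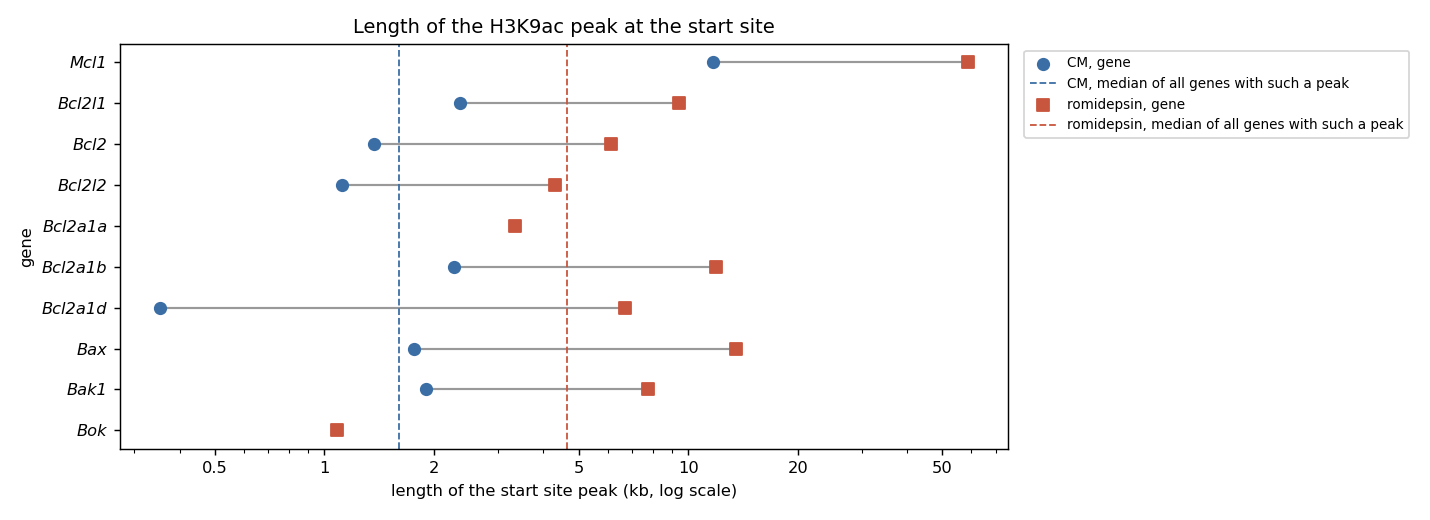
Length of the peak with the highest fold within 1 kb of the start site, in kb on a log scale, with CM as blue circles and romidepsin as red squares joined by a line for each gene. Dashed lines mark the medians over all genes with such a peak in that list, 1602 bp in CM and 4653 bp with romidepsin. Bcl2a1a and Bok have no CM point, and the longest lines belong to Bcl2a1d and Bax.

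Romidepsin start site peaks often joined several CM peaks. At 6 of these 8 genes, namely Mcl1, Bcl2l1, Bcl2l2, Bcl2a1b, Bcl2a1d and Bax, the romidepsin peak lay over at least 2 CM peaks, against 20.1% of the genes with both. Many of the joined CM peaks were weak. With a −log10 q of at least 2 in both lists the count was 2, and with at least 5 it was 1.

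Romidepsin start site peaks reached further downstream than upstream at 8 of 10 genes, Mcl1 and Bcl2a1a being the exceptions, against 71.7% of all genes with such a peak. Under CM this was so at 7 of 8, Bcl2l2 being the exception, against 80.5%. All 10 romidepsin peaks contained the start site (91.7% of all genes with one), and 6 of the 8 CM peaks did (86.9%), those of Bcl2a1b and Bcl2a1d beginning after it.

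Start sites with a CM peak had a higher CpG content than others over the genome, and those of the family ranged widely. The ratio of observed to expected CpG in the 300 bases had a median of 0.791 at the 10730 start sites with a peak in both lists, 0.403 at the 2748 with a romidepsin peak only and 0.213 at the 7784 with neither. Mcl1 and Bcl2 each stood at 1.02, with 33 and 44 CpGs. Bax was at 0.771, Bak1 at 0.435, Bcl2l2 at 0.337, Bcl2a1d at 0.275 and Bcl2a1b at 0.247. The 3 start sites of Bcl2l1 ranged from 1.07 at the most upstream one through 0.612 to 0.0558 at the most downstream one. Of the genes without a CM peak, Bok had a ratio of 0.673 and Bcl2a1a of 0.202. The Bcl2a1a ratio was near those of Bcl2a1b and Bcl2a1d, which did have a CM peak.

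**Figure D5:**
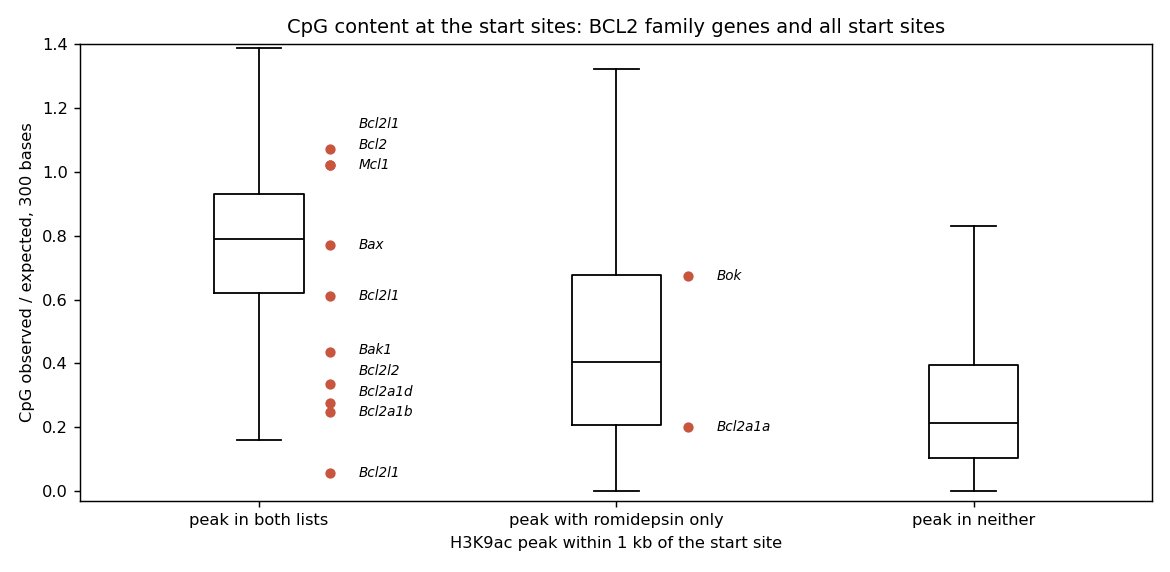
Ratio of observed to expected CpG in the 300 bases around each start site (vertical axis) by whether an H3K9ac peak lay within 1 kb of it in both lists, with romidepsin only or in neither. Boxes show the quartiles and median over all start sites, whiskers show the spread without outlying start sites, and red points are the start sites of the family. Bcl2a1b, Bcl2a1d, Bcl2l2, Bak1 and 2 of the 3 start sites of Bcl2l1 lie below the lower quartile of their class (0.621).

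Short motifs were searched on both strands in the same 300 bases, and overlapping matches were counted. GAGGAA occurred 3 times at Bcl2a1a, 4 times at Bcl2a1b and 2 times at Bcl2a1d, and at least once at 27.4% of all start sites. It also occurred 1 time each at Bcl2, Bcl2l2 and Bak1. TGANTCA, the loose form of the AP-1 site, occurred once in each A1 copy, each time as TGAATCA. No other start site of the family held it, against 6.99% of all start sites. Because the A1 copies are near-identical, their matches to this motif and to GAGGAA are not independent of each other. GGGCGG, the GC box bound by SP1, occurred 7 times at Bcl2, 3 times at Bax and 1 time each at Mcl1, Bcl2l2, Bok and the A1 copies, and was held by 46.2% of start sites. CACGTG, the E-box of MYC and its relatives, occurred 2 times at Bax and was held by 7.84%. CCAAT (38.2%) and TATAAA (12.6%) occurred at none of the family's start sites. These matches are letters in a window and show no binding.

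The rest of the mitochondrial death pathway was read the same way. Of 27 listed genes, from BH3-only activators to the apoptosome and its caspases, 19 had an annotated start site. A start site peak was found at 16 of them in CM (51.4% of all genes) and at 18 with romidepsin (63.1%). Bcl2l14 and Bcl2l15, less studied relatives of BCL2, had one with romidepsin only, and Hrk, a BH3-only gene of neurons, had none. The highest fold in CM was at Dnm1l (7.39), which encodes the mitochondrial fission enzyme DRP1, and with romidepsin at Cycs (4.83), the cytochrome c gene. The listed genes were covered by a median of 5.63% of the window in CM and 30.6% with romidepsin. In each list this median lay between that of all genes and that of the 10 BCL2 family genes. With equal numbers of strongest peaks, the start site counts were 16 and 14 (51.4% and 51.2% of all genes).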

How the data were processed

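H3K9ac was mapped by ChIP-seq of 75-base single-end reads in 4 libraries, with an immunoprecipitated library and its input in each of 2 conditions. The 2 immunoprecipitated libraries were used, and the inputs were not analysed here. Per the submitters' processing notes, Bowtie2 2.4.4, MACS2 2.2.7.1 and deepTools 3.5.1 were used with mm10. Settings, read filters and any use of the input are not given in the sources used here. By the layout of the peak lists, which carry no header, the authors deposited for each peak a score, a fold enrichment (a ratio) and 2 significance values on a −log10 scale, a p-value and a q-value. One list was deposited per immunoprecipitated library.

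Gene spans and start sites were taken from RefSeq tables of GRCm38.p6, the assembly behind mm10; strands and start sites were known for 17492 of 21887 protein-coding genes, and exons were not used here. An overlap of 1 bp counted. For each gene the start site peak with the highest fold was used. The 10 genes and the lists were chosen with earlier results of these data known. All 10 genes are named, with others that share their windows or peaks, that make up a count of 5 or fewer or lead the death pathway list, and the 3 genes nearest to the one with the longest covered length. Python 3.11.15, pandas 2.3.3 and Biopython 1.88 were used, and interval counts were tested on simulated data. No between-condition test was possible with 1 library each.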

Additional observations from a re-analysis of the deposited data

How the results depend on the processing

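Counts of the 10 genes with a window peak stayed within 1.5 times the values given under every alternative tried. So did those with a start site peak, except at a −log10 q of at least 5, where they were 5 in CM and 5 with romidepsin. For the death pathway list, counts ran from 13 to 16 in CM and from 14 to 19 with romidepsin. These settings, and those for joined CM peaks and merged lengths, were chosen after seeing the data. With both gene ends in place of the start site, Bcl2l1 lost its CM peak. CM peaks in the windows numbered 12 without flanks and 11 at a −log10 q of 5 or more. Romidepsin peaks numbered 10 at a −log10 q of at least 5, 31 at a fold of at least 3, 21 among equal numbers of strongest peaks, 37 when peaks closer than 1 kb were merged, 59 without flanks and 146 with 25 kb flanks. Covered length in CM and with romidepsin was 37.41 and 243.9 kb for peaks with a −log10 q from 2 upward, 30.55 and 100.3 kb from 5 upward, 44.52 and 293.0 kb after merging, 35.68 and 213.9 kb without the 3 A1 copies, 17.18 and 161.4 kb without flanks, and 54.24 and 388.3 kb with 25 kb flanks. With romidepsin it was 180.7 kb at a fold of at least 3 and 147.5 kb among equal numbers. Genes whose romidepsin start site peak lay over at least 2 CM peaks numbered 2 at a −log10 q of at least 2, 1 at 5, and 2 with gene ends. By construction, each of these settings admits fewer, more or joined peaks. No paired analysis was possible because each condition had 1 library. Depth, which is unknown, limits every comparison of peak number and length.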
